A study of Mus musculus with 8 samples.

Results

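The 10 genes described here, Hif1a, Vegfa, Slc2a1, Ldha, Pgk1, Adm, Bnip3, Egln3, P4ha1 and Pdk1, are hypoxia and angiogenic response genes. They were taken by symbol, a rule that uses no measured value, and all 10 were found among the 23212 gene symbols counted. RNA was sequenced from whole perigonadal fat of 8 mice on the C57BL/6 background, of which 4 were wild type and 4 carried an adipocyte-specific knockout of a single gene, with no other allele or agent named. All mice were 20 weeks old and had been fed a 45% fat diet for 12 weeks from the age of 8 weeks, so lean fat was not sampled and no library is a measure of fat before obesity. What drives the deletion is not given in the sources used here, and cells other than adipocytes keep the gene, so a knockout library mixes both. Each library is 1 mouse by its label, and p-values measure the spread between these mice. The libraries held 46444435 to 51431956 counts each. Wild-type library 3 and knockout library 2 stood apart in carrying transcripts of epididymal or ciliated epithelium, and 0 of the 10 genes passed with these libraries or without them.

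Cells sense oxygen through hydroxylation of the alpha subunits of hypoxia-inducible factor (HIF). With oxygen present, prolyl hydroxylases mark HIF-1 alpha for breakdown, so its protein changes far more than its mRNA. When oxygen is short, the stabilised factor binds DNA with its partner ARNT and raises genes for glucose uptake, glycolysis, vessel growth and mitochondrial turnover. Expanding fat is known for low oxygen and for adipocyte secretion of VEGF-A, and lactate is a known product of adipocytes.

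None of the 10 genes differed between knockout and wild type beyond the spread between mice (edgeR quasi-likelihood test with Benjamini-Hochberg adjustment, adjusted p = 0.999865 for each). The largest difference in size was that of Adm, at a log2 fold change of -0.46, and the other 9 lay between -0.20 and 0.20. In the same comparison 0.0138% of the 14493 tested genes passed, so a count of 0 of 10 lies at the background. At an unadjusted p under 0.05 the count was also 0 of 10, against 2.23% of all tested genes, and DESeq2, which called 0.134% of the genes it adjusted, and limma voom, which called none, each called 0 of the 10 as well. Wild-type and knockout libraries overlapped for all 10 genes, where 1.44% of tested genes had groups that did not overlap (0.621% with knockout higher and 0.821% with knockout lower). Over the 8 mice, the ratio of the highest to the lowest library was 1.47 to 3.08, with the top values for Adm and Vegfa. In coefficient of variation, Vegfa, P4ha1 and Adm lay at the 95.3, 92.6 and 89.2 percentile of tested genes of like level, and the other 7 lay between 44.7 (Slc2a1) and 69.5 (Bnip3). Across mice Adm was negatively related to Egln3 and Ldha positively to Pgk1 in Pearson's r, but 0 pairs passed without wild-type library 2 or without knockout library 3. Without both libraries with epithelial transcripts 0 passed as well, though 6 libraries let a single pair reach an adjusted p of 0.0625 at the lowest in the exact permutation test.

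The windows before the start sites of 6 genes are shown because the relations between mice turn on them (Ldha with Pgk1, and Adm with Egln3) or because they had the smallest p with the adipocyte markers, which did not pass adjustment (Vegfa and Bnip3, adjusted p = 0.218 for both in an exact permutation test). Each is the 250 bases before the first RefSeq start, from 5′ to 3′ on the gene's strand, in GRCm38.p6, the assembly that mm10 names. Capitals mark ACGTG or GCGTG on either strand, the core that HIF binds; where 2 matches on opposite strands overlap, they form CACGTG, a motif that other basic helix-loop-helix factors also read.
Ldha (chr7:46845554-46845803, plus strand): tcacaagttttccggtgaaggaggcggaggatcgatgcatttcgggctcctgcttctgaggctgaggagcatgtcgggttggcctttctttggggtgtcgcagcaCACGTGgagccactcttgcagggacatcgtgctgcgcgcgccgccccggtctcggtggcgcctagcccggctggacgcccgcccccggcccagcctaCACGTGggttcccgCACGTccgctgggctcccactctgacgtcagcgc
Pgk1 (chrX:106186850-106187099, plus strand): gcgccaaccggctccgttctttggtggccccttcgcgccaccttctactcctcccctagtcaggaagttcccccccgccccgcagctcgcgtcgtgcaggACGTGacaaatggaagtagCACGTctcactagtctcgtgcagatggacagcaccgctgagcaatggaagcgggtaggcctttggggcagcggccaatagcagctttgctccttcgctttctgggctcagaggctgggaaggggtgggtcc
Adm (chr7:110627407-110627656, plus strand): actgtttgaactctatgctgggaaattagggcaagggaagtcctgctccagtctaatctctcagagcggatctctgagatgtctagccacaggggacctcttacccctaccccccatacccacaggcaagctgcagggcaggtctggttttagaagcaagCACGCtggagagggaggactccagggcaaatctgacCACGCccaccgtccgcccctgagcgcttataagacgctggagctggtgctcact
Egln3 (chr12:54203875-54204124, minus strand): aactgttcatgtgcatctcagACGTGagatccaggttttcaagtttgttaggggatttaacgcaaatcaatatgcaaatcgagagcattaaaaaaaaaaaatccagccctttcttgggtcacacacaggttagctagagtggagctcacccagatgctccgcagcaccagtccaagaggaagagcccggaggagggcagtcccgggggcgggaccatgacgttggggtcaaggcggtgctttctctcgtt
Vegfa (chr17:46032378-46032627, minus strand): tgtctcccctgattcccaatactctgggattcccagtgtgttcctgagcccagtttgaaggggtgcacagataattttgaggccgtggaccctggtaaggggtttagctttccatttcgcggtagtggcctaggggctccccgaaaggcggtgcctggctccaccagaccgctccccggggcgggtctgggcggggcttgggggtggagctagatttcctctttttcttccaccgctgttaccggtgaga
Bnip3 (chr7:138909507-138909756, minus strand): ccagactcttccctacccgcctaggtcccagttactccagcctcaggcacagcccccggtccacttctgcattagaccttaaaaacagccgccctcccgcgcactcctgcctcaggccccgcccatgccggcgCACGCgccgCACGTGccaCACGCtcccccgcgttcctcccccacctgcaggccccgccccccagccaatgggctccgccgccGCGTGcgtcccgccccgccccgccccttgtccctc

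Either core was found in 9 of the 10 windows, when the first listed start of each gene was used, and in 38.6% of all 32841 RefSeq windows of the same length. At least 2 separate places were found in 7 of 10 windows and in 13.5% of all windows. Over every listed start of the 10 genes, 11 of 13 windows (84.6%) held either core and 8 of 13 (61.5%) at least 2 places. Among first starts the exception was that of Vegfa, whose window held no match, while the second listed Vegfa start had 2. Bnip3 had 4 separate places, Ldha 3, Pgk1 and Adm 2 each, and Egln3 1. The first-start windows of the 10 genes held 50.8% to 72.4% G and C against a median of 52.4% over all windows. The second listed Pdk1 start, with no match, held 38.4%. The part of base composition in these counts was not tested. A match is a run of letters and not a measured binding site, and distant elements lie outside these windows.

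Levels were compared between genes only per length, as RPKM, the library-scaled count (CPM, below) divided by the exon length in kilobases, over all 8 libraries. Ldha, lactate dehydrogenase A, was the highest at 361 ± 58.8 RPKM (SD, n = 8). Bnip3, a mitophagy receptor, followed at 134 ± 24.1 RPKM and Vegfa at 52.8 ± 20.0 RPKM. Hif1a was at 21.6 ± 3.32 RPKM and P4ha1 at 13 ± 3.92 RPKM. Adm at 8.18 ± 3.32 RPKM and Pdk1 at 7.94 ± 1.24 RPKM could not be placed in order, since Adm was above Pdk1 in 4 of 8 libraries. Slc2a1 stood at 6.16 ± 0.822 RPKM, Pgk1 at 4.82 ± 0.906 RPKM and Egln3, the lowest, at 2.19 ± 0.522 RPKM. The ranges did not overlap between Ldha and Bnip3, between Vegfa and Hif1a, and between Pgk1 and Egln3. All other neighbours in this order had ranges that overlapped.

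Pgk1, phosphoglycerate kinase of glycolysis, stood low for an enzyme that every cell uses. Its transcript shares at least 200 bases at 95% identity or more with 4 other annotated loci. That of Ldha, the highest of the 10 genes, does so with 4 and that of Bnip3 with 5. The same search found 78 such loci for Gapdh, another glycolytic enzyme of every cell, which was chosen after its value was seen. Gapdh was at 0.391 ± 0.0753 CPM in wild-type mice and 0.369 ± 0.11 CPM in knockout mice (SD, 4 libraries each). How the authors' counting treated reads that match several loci is not given in the sources used here, so the levels of Pgk1, Ldha and Bnip3 and their places in the order above are uncertain. The other 7 genes had no such locus. None of the 10 shared exonic bases with another gene in the authors' annotation.

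The values that follow are levels in CPM, the gene's count scaled to a common library size by the TMM method so that libraries can be compared. Hif1a (chromosome 12, 73907867 to 73947530, mm10, 15 exon blocks), the oxygen-regulated subunit itself, was at 105, 132, 101 and 89.2 CPM in the 4 wild-type libraries, in order of their number, and at 93.1, 120, 85.5 and 96.0 CPM in the 4 knockout libraries. Library 2 was the highest of its genotype in both, and the groups overlapped almost throughout. Knockout over wild type gave a log2 fold change of -0.11 (95% interval -0.45 to 0.22).

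Egln3 (chromosome 12, 54178981 to 54203874) encodes PHD3, a prolyl hydroxylase of HIF alpha that HIF itself induces. It was at 5.55, 8.41, 4.69 and 4.21 CPM in wild-type mice and at 7.18, 6.32, 4.91 and 5.57 CPM in knockout mice. Wild-type libraries held both the highest and the lowest value, so all knockout values lay inside the wild-type range. Its log2 fold change was 0.07 (95% interval -0.48 to 0.61).

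Vegfa (chromosome 17, 46016993 to 46032377) encodes the main growth factor for endothelial cells. Its level was 257, 167, 194 and 202 CPM in wild-type mice and 233, 153, 404 and 152 CPM in knockout mice. Knockout library 3 stood above every other library, and knockout libraries 2 and 4 were the lowest of all 8. For Vegfa the log2 fold change was 0.20 (95% interval -0.51 to 0.92), and without knockout library 3 it was -0.19. The coefficient of variation of Vegfa over the 8 libraries, 37.8%, exceeded that of 95.3% of the 1362 tested genes within 2-fold of its level, whose median was 13.5%.

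Adm (chromosome 7, 110627669 to 110629819) encodes adrenomedullin, a peptide that widens vessels and acts on endothelium. Its level was 10.5, 5.86, 18.0 and 18.0 CPM in wild-type mice and 7.18, 9.10, 12.5 and 9.25 CPM in knockout mice. The top 2 values were those of wild-type libraries 3 and 4, and wild-type library 2 was the lowest of all. For Adm it was -0.46 on the log2 scale (SE 0.35, 95% interval -1.25 to 0.32), which moved to -0.27 without either wild-type library 3 or 4 and to -0.71 without wild-type library 2. Its coefficient of variation was 40.7%, above that of 89.2% of the 3715 genes of like level.

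**Figure D1:**
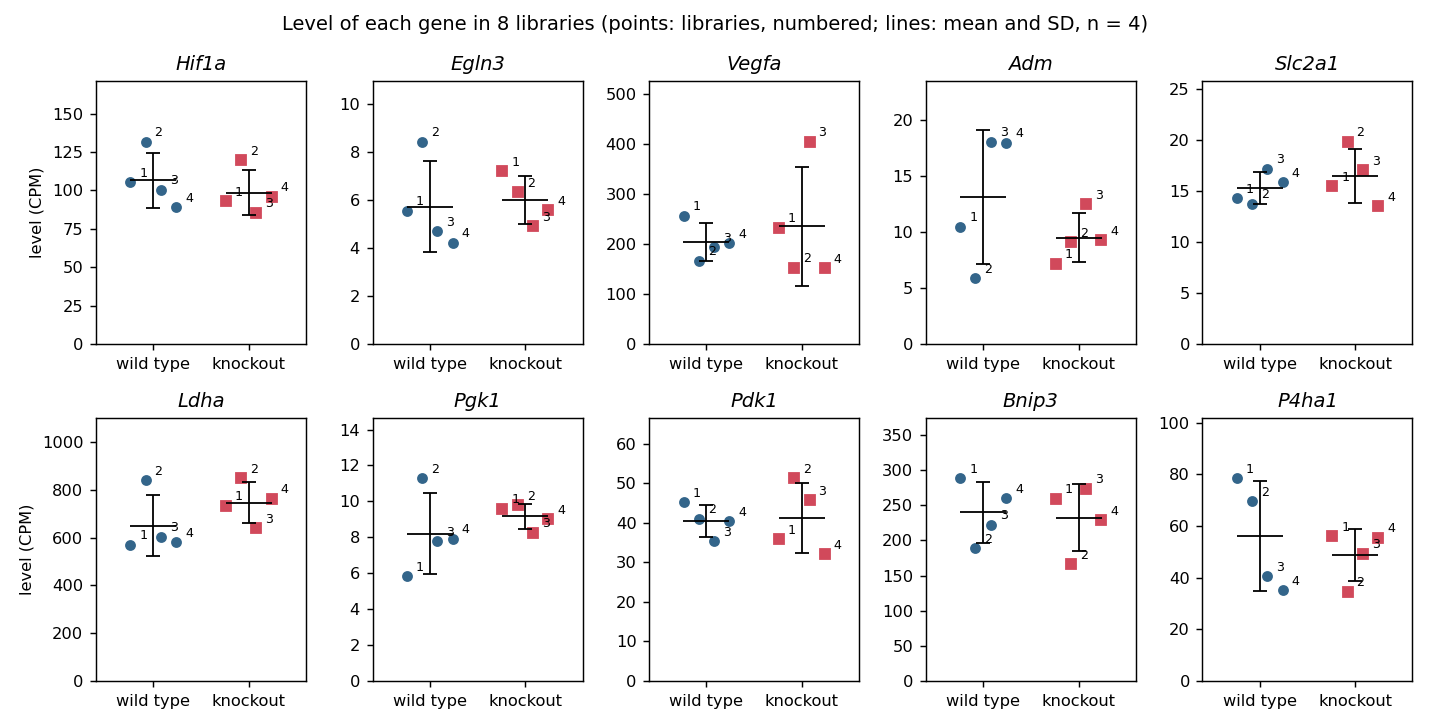
Level of each of the 10 genes in CPM (vertical axis, from 0) in 4 wild-type (circles) and 4 knockout (squares) libraries, numbered by replicate, with the mean and SD of each genotype as lines. The genotypes overlap in every panel, knockout library 3 stands apart for Vegfa at 404 CPM, and the wild-type libraries spread from 5.86 to 18.0 CPM for Adm.

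Among genes of glucose handling, Slc2a1 (chromosome 4, 119108745 to 119137329) encodes the glucose transporter GLUT1. It was at 14.3, 13.7, 17.2 and 15.8 CPM in wild-type mice and at 15.5, 19.8, 17.0 and 13.5 CPM in knockout mice, with both ends of the range in knockout. Its log2 fold change was 0.11 (95% interval -0.21 to 0.42). The top 2 values belonged to knockout library 2 and wild-type library 3. These libraries also held epithelial RNA: the summed level of 5 epididymal and ciliated epithelium markers was 33.2 CPM in wild-type library 3 and 104 CPM in knockout library 2, and at most 3.85 CPM in the other 6. With the mean log2 CPM of these markers Slc2a1 had r = 0.673 over the 8 libraries (exact permutation p = 0.0763, adjusted 0.381), rho = 0.381, and r = -0.682 without these libraries, so the sign of the relation rested on them. Without both, the log2 fold change of Slc2a1 was 0.07, and without knockout library 2 alone it was 0.0011. The part of these cells in the Slc2a1 level was not tested.

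Ldha (chromosome 7, 46845804 to 46855627), which turns pyruvate into lactate, was at 570, 840, 603 and 582 CPM in wild-type mice and at 734, 848, 638 and 763 CPM in knockout mice. Wild-type library 2 lay with the knockout libraries, and the other 3 wild-type libraries lay below all 4 knockout libraries. On the log2 scale the difference was 0.20 (SE 0.16, 95% interval -0.16 to 0.57), and it was 0.35 without wild-type library 2. In that setting Ldha and Adm had an unadjusted p under 0.05 and an adjusted p of 0.999919 (edgeR quasi-likelihood). There 340 of all 14711 tested genes had an unadjusted p under 0.05. No other alternative setting gave such a p to any of the 10 genes. Pgk1 (chromosome X, 106187124 to 106203699) was at 5.82, 11.3, 7.79 and 7.92 CPM in wild-type mice and at 9.60, 9.78, 8.25 and 9.0 CPM in knockout mice. For Pgk1 wild-type library 2 was above all knockout libraries, and the other 3 wild-type libraries were below them. For Pgk1 the difference was 0.16 (95% interval -0.29 to 0.60).

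Pdk1 (chromosome 2, 71873272 to 71903858) encodes a kinase that shuts the pyruvate dehydrogenase complex and so keeps pyruvate out of mitochondria. It was at 45.2, 41.0, 35.2 and 40.4 CPM in wild-type mice and at 35.7, 51.2, 45.6 and 32.1 CPM in knockout mice, where the knockout libraries enclosed the wild-type range. Fitted on the log2 scale, the difference was 0.02 (95% interval -0.33 to 0.38). Bnip3 (chromosome 7, 138890836 to 138909506) was at 288, 189, 222 and 260 CPM in wild-type mice and at 259, 166, 274 and 229 CPM in knockout mice. Library 2 was the lowest of its genotype in both groups, the reverse of Hif1a. Bnip3 had a log2 fold change of -0.05 (95% interval -0.47 to 0.37).

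P4ha1 (chromosome 10, 59323296 to 59373304) encodes the catalytic subunit of collagen prolyl 4-hydroxylase, which stabilises the collagen triple helix. It was at 78.4, 69.6, 40.6 and 35 CPM in wild-type mice and at 56.0, 34.6, 49.2 and 55.5 CPM in knockout mice. Wild type split into a high and a low pair of libraries, and 3 of 4 knockout libraries lay in the gap between these pairs. The log2 fold change was -0.20 (95% interval -0.82 to 0.43), and the coefficient of variation of 30.3% was above that of 92.6% of the 4486 genes of like level.

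As folds, the 95% intervals allow Slc2a1 a ratio of knockout to wild type from 0.865 to 1.34, Hif1a from 0.733 to 1.16, and Ldha from 0.893 to 1.48. For Vegfa the interval runs from 0.701 to 1.89 and for Adm from 0.421 to 1.25, so a doubling lies outside all of these intervals and a halving outside all but that of Adm. A p that misses the threshold does not show equal levels. Of the 10 log2 fold changes 6 were above 0, with a median of 0.05, and of all tested genes 53.1% were above 0, with a median of 0.01.

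**Figure D2:**
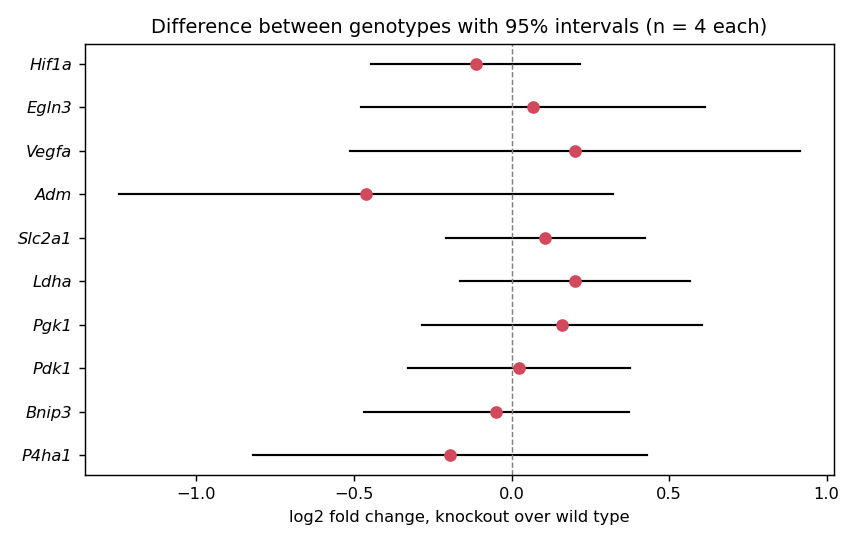
Log2 fold change of knockout over wild type for each of the 10 genes (points) with 95% intervals (lines) from the edgeR fit over all genes, 4 libraries in each genotype. Every interval includes 0, and the widest are those of Adm, from -1.25 to 0.32, and Vegfa, from -0.51 to 0.92.

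Whether the genes varied together between mice was asked over the 8 libraries, as correlations of log2 CPM for all 45 pairs. Adm and Egln3 ran against each other: Egln3 was highest and Adm lowest in wild-type library 2, and wild-type libraries 3 and 4 had the lowest Egln3 and the highest Adm. Pearson's r was -0.960 (exact permutation p = 0.000273, adjusted p over the 45 pairs 0.0123) and Spearman's rho was -0.976 (exact permutation p = 0.000397, adjusted 0.0179). Without wild-type libraries 3 and 4, the farthest from the median of Adm, r was -0.980, and with genotype means removed it was -0.970. Wild-type library 2, an extreme for Adm and for Egln3, was kept in these checks. Ldha and Pgk1 were high in the same libraries, with r = 0.871 (exact permutation p = 0.00114, adjusted 0.0257) and rho = 0.929 (exact permutation p = 0.00223, adjusted 0.0502). For this pair r was 0.800 without wild-type library 2 and knockout library 2 and 0.852 with genotype means removed. Both of these transcripts have near-identical copies elsewhere in the genome, as given above.

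These 2 pairs were the only ones of the 45 to pass in Pearson's r, and 8 pairs had an unadjusted p under 0.05. Which pairs passed depended on single mice: leaving out wild-type library 2 or knockout library 3 left 0 pairs. Then the adjusted p of Adm with Egln3 was 0.0982 and 0.0580, at r of -0.944 and -0.963. That of Ldha with Pgk1 also missed without wild-type library 1 (0.0571) and without knockout library 2 (0.0670), at r of 0.913 and 0.884. The leave-one-out settings for pairs were added after the data were examined. All values of a library share its RNA sample and scaling. The relation of Adm with Egln3 also ran beside the cell mixture: with 5 mesothelial markers Egln3 had r = 0.761 (exact permutation p = 0.0298, adjusted 0.298; r = 0.344 without wild-type library 2 and knockout library 1). Adm had r = -0.705 with the same markers (exact permutation p = 0.0540, adjusted 0.298), and r = -0.307 without wild-type library 2 and knockout library 1. With 8 smooth muscle and pericyte markers Adm had r = 0.731 (exact permutation p = 0.0388, adjusted 0.298), and r = 0.064 without wild-type libraries 3 and 4. With genotype means removed, that r was 0.694. For the mesothelial markers r was then 0.842 with Egln3 and -0.857 with Adm. The mesothelial markers summed to 167 to 908 CPM in wild-type mice and 104 to 798 CPM in knockout mice, and their part in the relation was not tested.

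Below the threshold, Ldha and Bnip3 had r = -0.791 (exact permutation p = 0.0202, adjusted 0.172) and rho = -0.810, and r was -0.400 without wild-type library 2 and knockout library 2, so that relation rested largely on those libraries. Vegfa and Bnip3 had r = 0.735 (exact permutation p = 0.0350, adjusted 0.197) and rho = 0.810, with r = 0.960 without knockout libraries 3 and 4. Hif1a mRNA had no relation with any of the other 9 that passed, the nearest being Bnip3 at r = -0.769 (exact permutation p = 0.0268, adjusted 0.172), which was -0.147 without wild-type library 2 and knockout library 2. Hif1a with Vegfa, the factor and its best-known target, had r = -0.600 (exact permutation p = 0.115, adjusted 0.365).

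**Figure D3:**
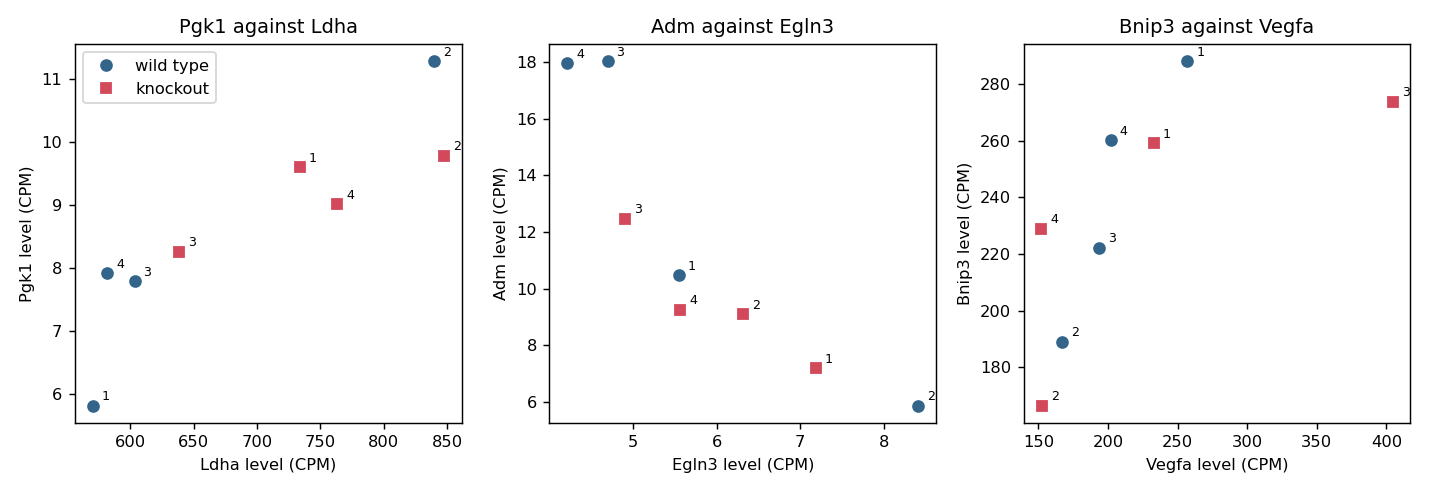
Levels in CPM of Pgk1 against Ldha, Adm against Egln3 and Bnip3 against Vegfa, 1 point per library (circles wild type, squares knockout, numbered by replicate). Libraries with more Ldha have more Pgk1, and Adm ranges from 18.0 down to 5.86 CPM where Egln3 ranges from 4.21 up to 8.41 CPM, and both genotypes are spread along each trend.

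**Figure D4:**
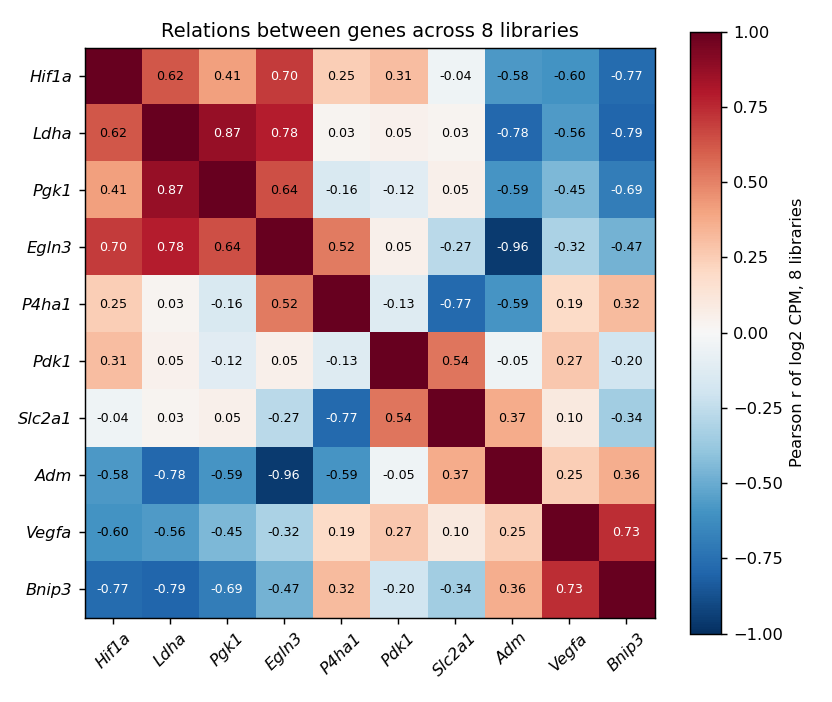
Pearson's r of log2 CPM over 8 libraries for each of the 45 pairs of the 10 genes, in colour from -1 to 1 and in figures. Ldha with Pgk1 (0.871) and Adm with Egln3 (-0.960) are the pairs that passed adjustment over the 45, and Vegfa and Bnip3 have negative values with Hif1a, Ldha, Pgk1 and Egln3.

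Whole fat is a mixture of cells, and in such samples fewer cells of a type and less RNA per cell cannot be told apart. The labelled tissue held its defining markers: 8 of 8 mature adipocyte markers were tested, with a summed level of 36959 to 53027 CPM in wild-type mice and 34490 to 52843 CPM in knockout mice. Vegfa followed the mean log2 CPM of these markers with r = 0.856 (exact permutation p = 0.00474) and rho = 0.857, and r was 0.754 without knockout libraries 2 and 3. For Bnip3 r was 0.862 (exact permutation p = 0.00623) and rho 0.905, with 0.743 without the same libraries. Neither passed over the 70 relations of 10 genes with 7 marker lists (adjusted p = 0.218 for both), nor did any other, and 11 had an unadjusted p under 0.05. Vegfa also had r = 0.792 with 10 endothelial markers (exact permutation p = 0.0128, adjusted 0.224). Those markers summed to 974 to 1478 CPM in wild-type mice and 1010 to 1577 CPM in knockout mice. Pdk1 ran against 10 macrophage markers at r = -0.829 (exact permutation p = 0.0122, adjusted 0.224), which summed to 400 to 1196 CPM in wild-type mice and 526 to 2284 CPM in knockout mice. The part of cell mixture in the levels of the 10 genes was not tested.

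None of the 7 marker lists passed the threshold between genotypes (exact permutation test of mean log2 CPM, two-sided, adjusted p = 0.800 for all). With 4 against 4 libraries the smallest p this test can give is 0.0286. A single list therefore could not pass after adjustment over 7 lists, and the miss does not show an equal cell mixture. The macrophage list was 0.59 higher in knockout on the log2 scale (exact permutation p = 0.371), with 10 of 10 genes above 0. The mesothelial list was lower, at -0.50 (exact permutation p = 0.571), with 5 of 5 genes below 0. The smooth muscle and pericyte list differed by -0.42 (exact permutation p = 0.229), with 7 of 8 genes below 0 and 1 above. Of these 8 genes, 2 had an unadjusted p under 0.05 (edgeR quasi-likelihood), against 2.23% of all tested genes, and 0 passed adjustment. The summed level of 8 smooth muscle and pericyte markers was 450 to 944 CPM in wild-type mice and 388 to 456 CPM in knockout mice. Of 4 matched red blood cell genes, Hba-a1 and Hba-a2 were listed at 0 in every library while the list summed to 371 to 1193 CPM. These 2 symbols share exonic bases with each other in the authors' annotation, and the cause of their zeros was not tested. Of 4 skeletal muscle genes only Acta1 and Mylpf could be tested. In each of these lists the 2 tested genes were below 0. One gene of each had an unadjusted p under 0.05 (edgeR quasi-likelihood), Alas2 at -0.84 and Acta1 at -1.07 on the log2 scale. Neither passed adjustment.

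In the wider pathway, 82 listed genes in 7 role groups were all matched, 81 were tested, and 0 passed in either direction, also at an unadjusted p under 0.05, where all tested genes gave 0.0138% and 2.23%. The edgeR quasi-likelihood test, DESeq2 and limma voom all gave 0 after adjustment. Of the 81, 45 were above 0 and 36 below, with a median log2 fold change of 0.02. In none did the libraries of the genotypes separate, as they did for 1.44% of all tested genes, so these counts lie near the background.

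The oxygen-sensing machinery had 8 of 12 genes above 0, with a median of 0.06. Its smallest p belonged to Limd1, a scaffold of the complex that degrades HIF alpha, at 56.7 ± 2.64 CPM in wild-type mice and 63.8 ± 5.77 CPM in knockout mice (SD, n = 4 each; log2 fold change 0.17, unadjusted p = 0.0866, edgeR quasi-likelihood). Cited2, which competes with HIF for its coactivators, was at 60.3 ± 20.1 and 48.7 ± 9.75 CPM, and the neural ARNT relative Arnt2 at 0.636 ± 0.403 and 1.37 ± 1.12 CPM. Outside the naming rule, and chosen after their values were seen, are Epas1, which encodes HIF-2 alpha, at 454 ± 91.1 and 496 ± 170 CPM, and Egln1, the main HIF prolyl hydroxylase, at 115 ± 5.57 and 108 ± 5.15 CPM. Per length, Epas1 stood at 88.8 RPKM against 21.6 RPKM for Hif1a and Egln1 at 31.6 RPKM against 2.19 RPKM for Egln3, as means over 8 libraries.

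Among 16 genes of glycolysis and of glucose or lactate transport, 10 were above 0 and the median was 0.04. Hexokinases Hk1 and Hk2, which trap glucose in the cell, were at 41.2 ± 3.55 and 135 ± 11.6 CPM in wild-type mice and at 47.9 ± 3.98 and 120 ± 14.4 CPM in knockout mice, with log2 fold changes of 0.22 and -0.17. Pfkl, the liver-type phosphofructokinase, was at 148 ± 19.3 and 182 ± 29.2 CPM (log2 fold change 0.29). The pyruvate dehydrogenase kinase and mitochondrial group had 3 of 9 above 0 (median -0.03), with Pdk3, a relative of Pdk1, at 18.6 ± 3.09 and 15.9 ± 1.88 CPM. In the same group, Mxi1, a MYC antagonist, was at 29.0 ± 4.52 and 25.4 ± 3.96 CPM and the mitochondrial protein Higd1a at 28.5 ± 3.23 and 27.1 ± 4.96 CPM. None of these genes passed.

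Collagen hydroxylation and crosslinking genes split evenly, 3 of 6 tested being above 0 (median -0.01). The lysyl hydroxylase Plod2 was at 14 ± 2.19 CPM in wild-type mice and 11.3 ± 3.45 CPM in knockout mice, its relative Plod1 at 135 ± 15 and 151 ± 26.8 CPM, and the lysyl oxidase Loxl2 at 28.1 ± 5.51 and 38.9 ± 23.9 CPM. Knockout library 1 held the highest Loxl2, at 73.3 CPM, and the log2 fold change of 0.47 turned to -0.04 without it. P4ha3, a relative of P4ha1, was too low to be tested.

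Angiogenic ligands and receptors had 9 of 19 above 0, with a median of -0.02. The growth factor Fgf2 was at 2.4 ± 0.617 CPM in wild-type mice and 1.52 ± 0.546 CPM in knockout mice (log2 fold change -0.65, 95% interval -1.38 to 0.07), and Figf, which encodes VEGF-D, at 42.5 ± 11.2 and 30.2 ± 10.7 CPM. Aplnr, the apelin receptor of endothelial cells, was at 33.4 ± 5.66 and 40.8 ± 8.80 CPM. The receptors for VEGF-A, Kdr and Flt1, were chosen after their values were seen and were at 126 ± 35.1 and 60.1 ± 24.6 CPM in wild-type mice and at 112 ± 40.8 and 50.5 ± 20.1 CPM in knockout mice. For adrenomedullin, the receptor gene Calcrl was at 24 ± 6.12 and 21.6 ± 1.70 CPM, and its partners Ramp2 and Ramp3 at 73.9 ± 9.70 and 0.777 ± 0.460 CPM in wild-type mice and at 79.8 ± 18.1 and 1.19 ± 1.34 CPM in knockout mice. None passed.

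Other hypoxia-inducible genes had 10 of 16 above 0 (median 0.03). The carbonic anhydrases Car9 and Car12, well-known HIF targets in tumours, were near the floor at 0.429 ± 0.251 and 1.84 ± 1.6 CPM in wild-type mice and at 0.826 ± 0.611 and 0.668 ± 0.566 CPM in knockout mice. Car12 reached 4.23 CPM in wild-type library 3, one of the libraries with epithelial markers. In knockout library 2, the other of them, Car12 was at 0.268 CPM, its lowest level in any library. The fitted difference of Car12 was -1.46 (log2, unadjusted p = 0.0674, edgeR quasi-likelihood). It became -0.64 without wild-type library 3 and -0.38 without both such libraries, and the part of these cells was not tested. Ero1l, an oxidase of the endoplasmic reticulum, was at 22.1 ± 2.91 and 20.2 ± 1.54 CPM.

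**Figure D5:**
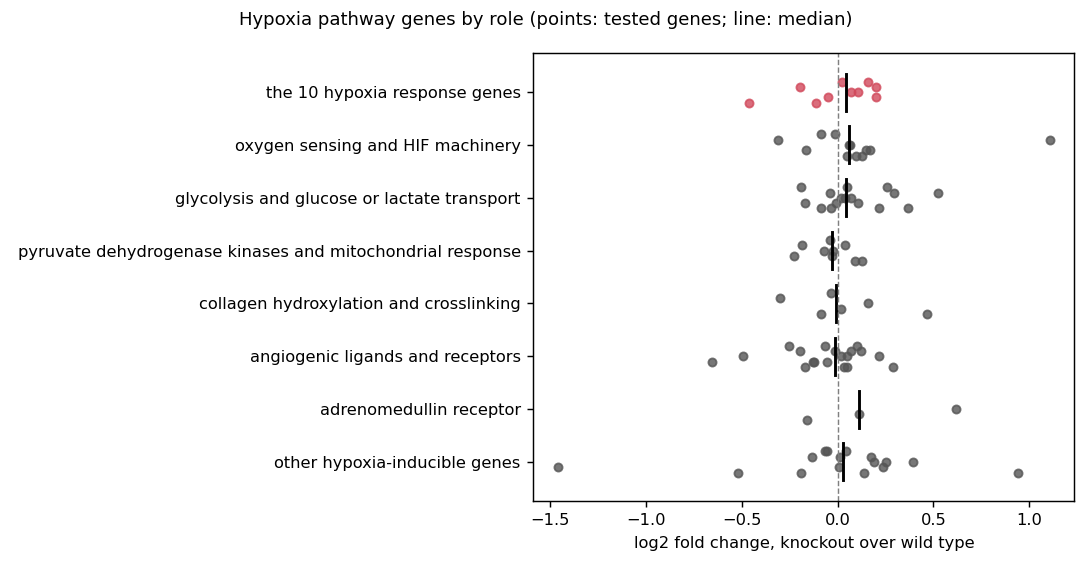
Log2 fold change of knockout over wild type (horizontal axis) for each tested gene of the hypoxia pathway, grouped by role, with the median of each group as a line and the 10 genes of this account in the top row. Group medians lie between -0.03 and 0.11, and no gene shown passed the test.

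For each of the 10 genes, those with the most similar pattern of log2 CPM over the 8 libraries were sought among 11898 named genes at a mean of 1 CPM or more. As the top of so many, their r is high by choice and is given as a description. For Hif1a these were Vps36 (r = 0.967) and the glycolytic enzyme Pfkp (r = 0.963), for Egln3 the transglutaminase Tgm2 (r = 0.962) and Fam107b (r = 0.955), and for Ldha Mfsd5 (r = 0.982) and Rps26 (r = 0.980). Pdk1 was most like Slc2a4 (r = 0.981), which encodes the insulin-responsive glucose transporter GLUT4, and Golga2 (r = 0.979). Vegfa was nearest to Tecpr1 (r = 0.969) and Phlpp1 (r = 0.963), Bnip3 to the transcription factor Foxo4 (r = 0.976) and Rmnd5a (r = 0.969), and Adm to Adam22 (r = 0.973) and Dok7 (r = 0.967). P4ha1 was nearest to Papola (r = 0.969) and Eif4g2 (r = 0.968), Slc2a1 to Pnkd (r = 0.938) and Ythdf1 (r = 0.923), and Pgk1 to Scamp4 (r = 0.946) and Snrpc (r = 0.941).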

How the data were processed

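Whole perigonadal fat of 8 mice was measured by RNA-seq. Per mouse, the authors deposited a table of read counts by gene symbol, in whole numbers whose totals differ between libraries, so no normalization is seen in them. FastQC 0.11.2, STAR 2.4.0g1 (an aligner), featureCounts, Cufflinks, edgeR and mm10 are listed in the submitters' processing notes. Their settings, the strand of the counting and the treatment of reads with several matches are not given in the sources used. Exon positions were read from the deposited annotation.

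Libraries held 46444435 to 51431956 counts, and each of the 10 genes had at least 201 counts in every library, so differences between mice rather than counting set the precision. filterByExpr kept 14493 of 23212 genes. TMM factors were 0.966 to 1.05, and edgeR 4.0.16 (R 4.3.3) gave the robust quasi-likelihood F test without covariates, with Benjamini-Hochberg adjustment over all genes and a threshold of 0.05. SEs and intervals are those the F statistic implies. Log2 CPM used a prior count of 2. Correlations used all 40320 orders of 8 libraries, and comparisons of single values all 70 arrangements (smallest p 0.0286), two-sided. Of listed symbols 2 were matched by an older name (Pkm as Pkm2, Hbb-bs as Beta-s) and 1 had no match. Near-identical copies were sought by BLAST in GENCODE transcripts of GRCm38, and promoter windows are RefSeq's. The fits and permutation tests were checked on simulated data.

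Named genes were the 10 genes, the 3 of each role list with the smallest p, and the 2 of most similar pattern for each of the 10. The genes, lists and rules were chosen with earlier results of these data known. No library was left out of the main fit, and within a genotype every pair of libraries differed by more than sampling noise (chi-square per degree of freedom at least 63.0). Alternatives were median-ratio and total-count scaling, other low-count filters, a block for replicate number, leaving out each library or the pair with epithelial genes, DESeq2 1.42.0, limma 3.58.1 voom and non-robust dispersion. The targeted gene is not reported here.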

Additional observations from a re-analysis of the deposited data

Results flagged for a closer look

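A library lay far from the other 3 of its genotype in 4 of the 76 groups looked at, and chance alone gives about 3.8. Ldha was at a log2 CPM of 9.71 in wild-type library 2, while the remaining wild-type mice had 9.16 to 9.24. Knockout library 2 was low for Mxi1, at 4.29 against 4.74 to 4.81, and for Ramp2, at 5.73 against 6.42 to 6.50, in log2 CPM. Epididymal and ciliated epithelium markers had a mean log2 CPM of 2.85 in wild-type library 3, against -1.63 to -1.16 in the remaining wild-type mice.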

How the results depend on the processing

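None of the 10 genes passed in any of 17 alternative settings (smallest adjusted p 0.892), and neither did the 81 wider pathway genes. Adm, Ldha, Pgk1 and Slc2a1 kept the sign of their log2 fold change in every setting, and over all 10 genes 156 of 170 alternative values kept it and 14 turned. Every turn came with libraries left out. Leaving out single libraries gave log2 fold changes of -0.22 to 0.0020 for Hif1a, -0.19 to 0.36 for Vegfa, -0.15 to 0.079 for Bnip3, -0.049 to 0.31 for Egln3, -0.36 to 0.011 for P4ha1 and -0.10 to 0.12 for Pdk1. Of the other pathway genes named, the signs that turned were those of Higd1a (-0.16 to 0.025), Loxl2 (-0.038 to 0.70), Calcrl (-0.26 to 0.029) and Ramp3 (-0.56 to 1.07). Without both libraries with epithelial genes, a setting chosen with earlier results known, Bnip3, Egln3, Pdk1 and Ramp3 turned to 0.048, -0.041, -0.16 and -0.10.

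Over all genes, 2 passed in the main analysis. The count was also 2 with median-ratio factors, with a filter of at least 1 CPM in 4 libraries and with non-robust dispersion. With total counts, no low-count filter, limma voom, the replicate block and the epithelial pair left out 0 passed, DESeq2 called 17 (8 higher, 9 lower), and each library left out in turn gave 0 to 0. The cause was not tested. Same-numbered libraries had deviations correlated at -0.320 to 0.117 and different-numbered ones at -0.341 to 0.395. No pairing by number was seen, and so few libraries cannot exclude it. The count of related pairs was 2 with total counts, 0 to 3 with single libraries left out, 0 without the epithelial pair and 0 with genotype means removed, where a single pair could reach an adjusted p of 0.0625 and 0.0781 at the lowest.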
